A study of Mus musculus with 4 samples.

Results

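The interferon response genes described here are a set of 34 mouse genes that encode interferon receptors, the transcription factors and RNA sensors of interferon signalling, and the antiviral proteins that interferons induce. Members were taken as the rows of the deposited array table whose annotation gives exactly that 1 gene symbol, and for a gene with several rows the row of highest mean over all 4 arrays was used. This found 31 of the 34 genes, among 19934 genes in all. Isg15 and Gbp2 stand only on rows annotated with a second gene (Gm9706 and Gbp2b), no single-gene row was paired with Ifi44, and these 3 genes were not analysed here. Irf1 was the 1 member with more than 1 row. No member lies on chromosome 9, which carries Usp2.

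The data are 4 Affymetrix whole-transcript arrays of whole kidney RNA from C57BL6/N male mice aged 12 weeks, taken at Zeitgeber time 12, when the dark phase starts. There were 2 WT pools and 2 Usp2-KO pools, each of 3 mice, made from 6 pairs of littermates so that pools of the same number hold littermates. No group received a treatment, and the labels do not say which part of Usp2 was removed or in which cells. Usp2 encodes a ubiquitin-specific protease, and its product has been reported to remove ubiquitin from the interferon signalling protein TBK1 in cultured cells. The question asked of the members was whether their transcript levels differ between kidneys with and without Usp2.

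The array-wide measures can be given briefly. Array medians lay between 7.44 and 7.46 on the log2 scale, any pair of arrays correlated at 0.997 to 0.998 over genes (not independent points), and 0 pairs were identical. Usp2 read 11.63 and 11.71 in WT pools 1 and 2 and 7.65 and 7.60 in the Usp2-KO pools, a difference of -4.04 (SE 0.07, limma adjusted p = 2.8e-08), so the genotype labels hold in all 4 arrays. The kidney markers were present in each pool, with a mean log2 value of their 11 measured genes between 11.62 and 11.74. A pool averages its mice, so the error given below is that between pools and not that between animals. The number of arrays, 2 against 2, limits the precision of every value, and an exact permutation test of single values cannot give a two-sided p below 0.333. In whole tissue, fewer cells of a type and less RNA per cell cannot be told apart.

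Interferons are secreted proteins that cells release when they sense viral nucleic acid. Type I interferons bind the receptor built from IFNAR1 and IFNAR2, and interferon gamma binds that built from IFNGR1 and IFNGR2. The first leads to a complex that holds STAT2 and IRF9 and binds the interferon-stimulated response element (ISRE) of target genes, and the second acts through the gamma-activated site (GAS). In an uninfected kidney most of these genes are transcribed at a resting level.

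Promoter sequence was not used to choose the members, and the elements above were looked for in it. RefSeq promoters of the GRCm38.p6 build, from 250 bases before to 50 bases after a start site, were found for 29 of the 34 members, and not for Dhx58, Oas2, Mx1, Mx2 and Rtp4. The core of an ISRE, searched as GAAA, 2 bases of any kind and GAAA on both strands (TTTC, 2 bases and TTTC on the other), stood in the promoters of 14 of the 29 members (48.3%), against 3.99% of the 27025 genes with a promoter in that table. In 12 of the 14 the match lay wholly before the start, and in Ddx58 and Ifih1 it lay after it. The letters TTCNNNGAA, the core of a GAS, read the same on both strands and stood in 9 of the 29 members (31.0%), against 9.55% of all genes. The 2 motifs overlap in Bst2. A match describes letters, not a site that is bound.

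The stretches below show the ISRE core of 7 induced genes and of the signalling gene Stat2, whose values follow. They are printed from 5′ to 3′ on the strand of the gene, with up to 25 bases on either side, and capitals mark the motif.
Ifit1, chr19:34640760-34640838, plus strand: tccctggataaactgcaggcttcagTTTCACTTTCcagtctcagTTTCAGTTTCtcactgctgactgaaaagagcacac
Ifit3, chr19:34583348-34583441, plus strand: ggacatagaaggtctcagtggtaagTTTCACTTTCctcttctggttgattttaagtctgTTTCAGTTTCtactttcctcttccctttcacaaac
Rsad2, chr12:26456538-26456597, minus strand: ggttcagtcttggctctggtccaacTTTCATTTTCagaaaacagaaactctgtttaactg
Oas3, chr5:120777700-120777759, minus strand: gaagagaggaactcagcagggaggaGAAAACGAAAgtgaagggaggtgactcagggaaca
Gbp3, chr3:142559974-142560039, plus strand: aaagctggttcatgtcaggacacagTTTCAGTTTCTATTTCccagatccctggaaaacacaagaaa
Bst2, chr8:71537562-71537627, minus strand: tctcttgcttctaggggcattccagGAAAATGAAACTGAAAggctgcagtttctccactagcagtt
Cxcl10, chr5:92349068-92349127, minus strand: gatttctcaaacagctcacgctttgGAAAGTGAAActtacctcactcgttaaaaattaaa
Stat2, chr10:128270251-128270310, plus strand: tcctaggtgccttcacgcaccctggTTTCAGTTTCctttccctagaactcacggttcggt
Ifit1, Ifit3, Gbp3 and Bst2 hold 2 matches each, and those of Gbp3 and Bst2 overlap.

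The GAS core is shown for the transcription factors Irf1 and Irf8, in the same way.
Irf1, chr11:53769899-53769957, plus strand: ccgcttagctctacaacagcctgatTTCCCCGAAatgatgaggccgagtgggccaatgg
Irf8, chr8:120736162-120736238, plus strand: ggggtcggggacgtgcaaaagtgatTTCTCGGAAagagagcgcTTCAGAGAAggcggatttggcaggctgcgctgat
Irf8 holds 2 matches and Irf1 holds 1.

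No interferon response gene could be told apart between kidneys with and without Usp2 after adjustment. None of the 31 measured members passed the threshold of an adjusted p under 0.05 in limma, a linear model fitted over all genes, where 0.00502% of genes passed (1 gene, Usp2). In Usp2-KO kidney 15 members lay above and 16 below WT, with a median difference of -0.01 on the log2 scale, against -0.006 over all 19934 genes tested. The differences ran from -0.21 for Ifit1 to 0.19 for Mx2.

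The intervals give the range of differences compatible with the pools of each gene, without adjustment for the number of genes. They do not give the smallest change that would pass the adjusted threshold, which was not tested. Calb1, a kidney marker outside the members, differed by 0.44 and did not pass (limma adjusted p = 0.286). For all 31 members the 95% confidence interval of the difference lay within 0.5 of 0 on the log2 scale, a change of 1.41-fold, as it did for 97.8% of all genes. The farthest bounds were -0.45 for Ifit1, or 1.36-fold lower, and 0.39 for Dhx58, or 1.31-fold higher. For 16 members the interval lay within 0.25 of 0. It included 0 for 30 of the 31.

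At an unadjusted p under 0.05 limma gave 1 member, Mx2, which is 3.23% of those measured, where 9.11% of all genes reached it (5.22% higher and 3.88% lower in Usp2-KO). An absolute difference over 0.2 was found for 1 member, Ifit1, against 7.71% of all genes. In 11 members (35.5%) the WT and Usp2-KO pools did not overlap, with the Usp2-KO pools higher in 4 and lower in 7, and this was so for 38.9% of all genes (19.8% higher, 19.1% lower). Each of these shares among the members lay near or below that of all genes. With the littermate pools as a block, 0.768% of all genes passed (0.512% higher and 0.256% lower in Usp2-KO) and no member did.

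**Figure D1:**
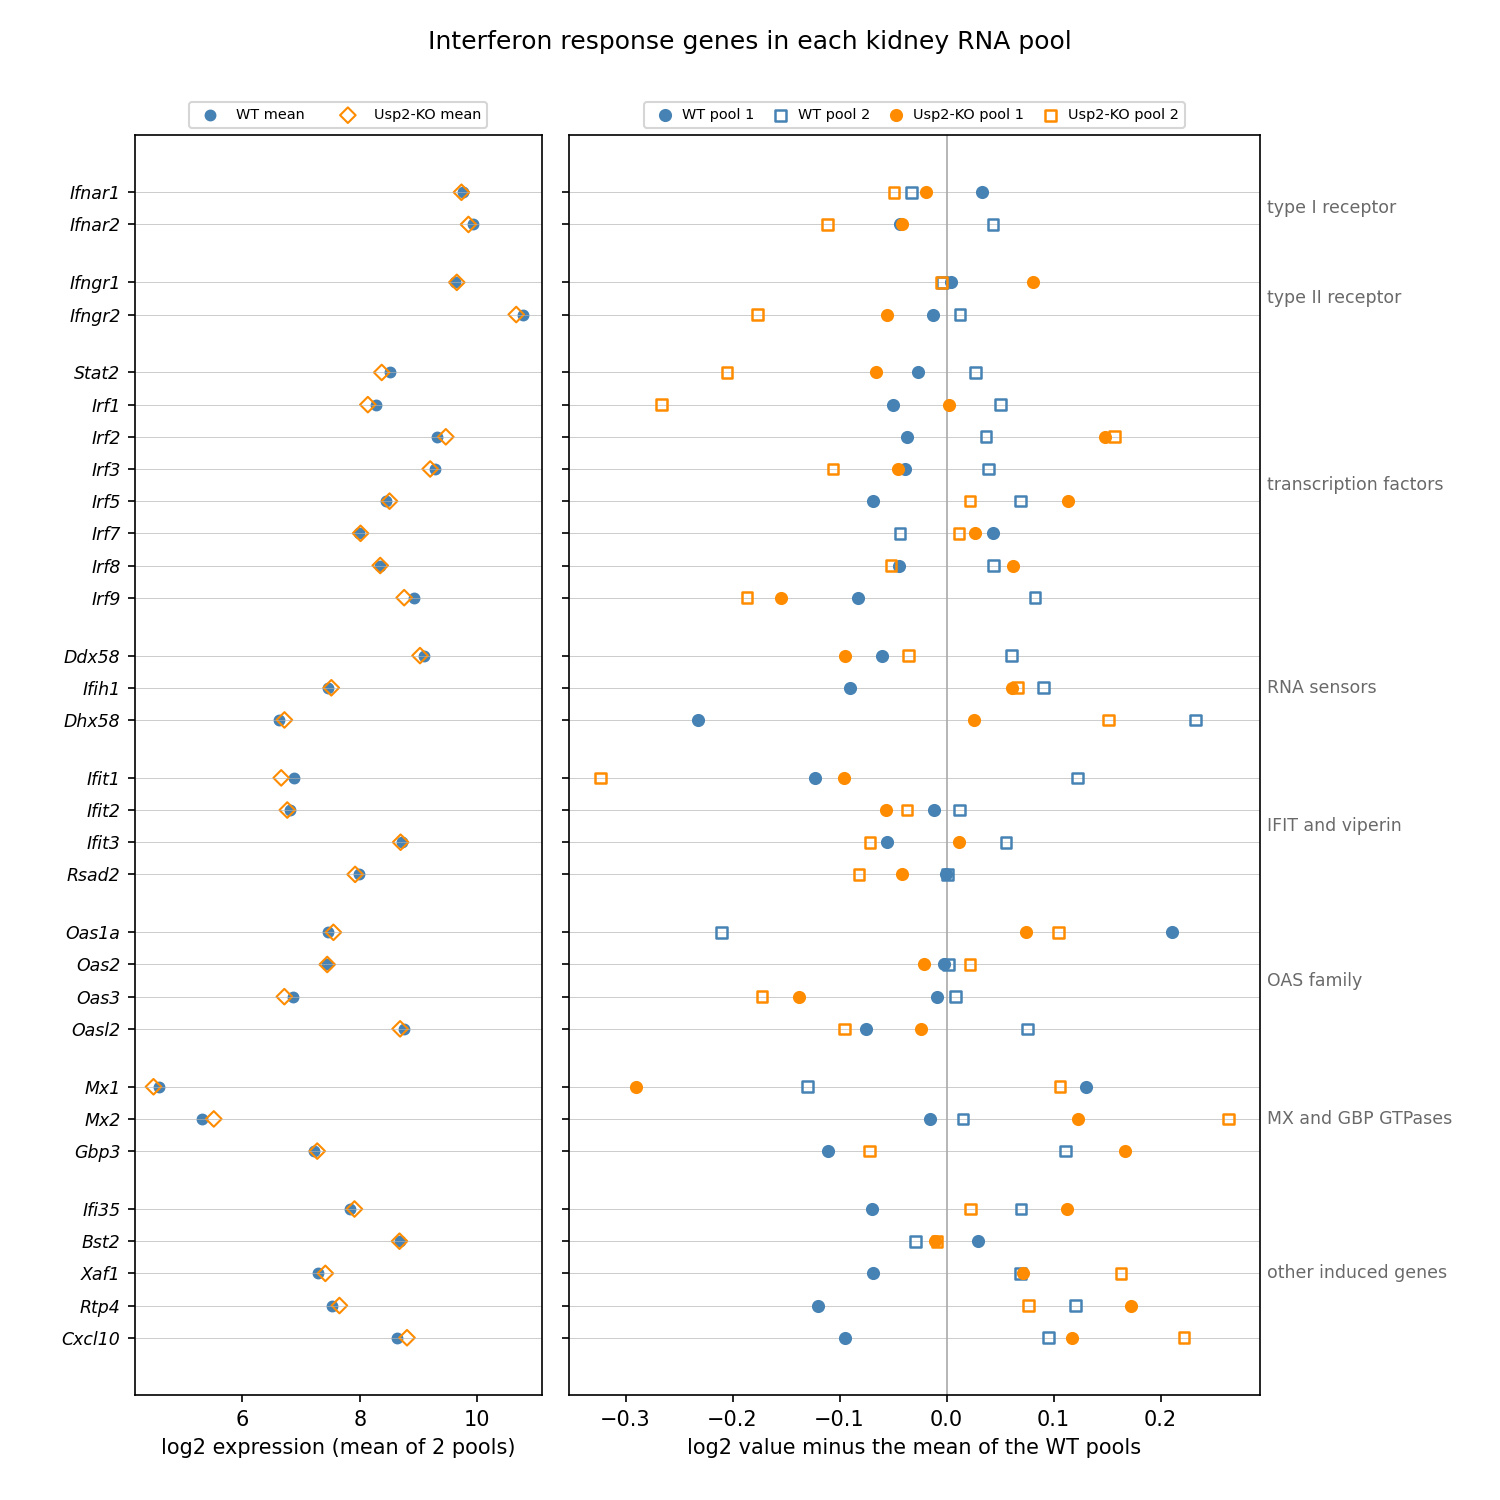
Left, mean log2 expression of each of the 31 measured members in WT and Usp2-KO kidney (2 pools each), which should be compared within a gene and not between genes. Right, the log2 value of each pool minus the mean of the WT pools of that gene, where the pools of both genotypes mix for 20 of the 31 members and the values stay between -0.32 and 0.26.

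**Figure D2:**
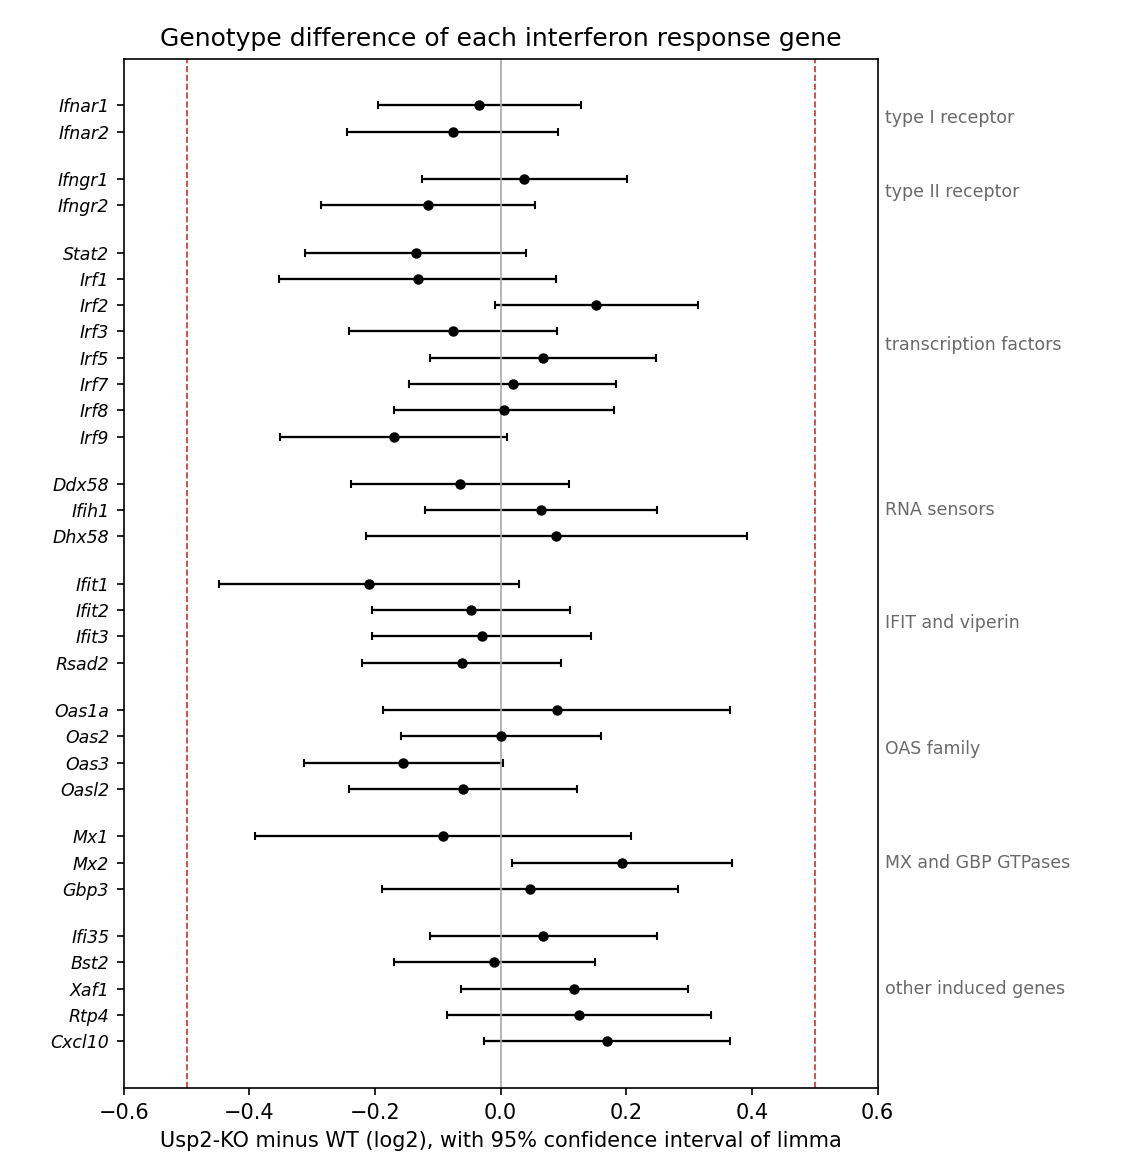
Usp2-KO minus WT of each measured member on the log2 scale (points) with its 95% confidence interval from limma (bars, 2 pools against 2), grouped by role. Dashed lines mark -0.5 and 0.5, and all 31 intervals lie between them.

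The 4 receptor genes, which set which interferons a cell can respond to, showed no difference past the threshold. Ifnar1, the signalling chain of the type I receptor, read 9.80 and 9.73 in WT pools 1 and 2 and 9.74 and 9.71 in the Usp2-KO pools. Ifnar2, its high-affinity chain, read 9.88 and 9.97 in WT and 9.88 and 9.81 in Usp2-KO pools. The groups overlapped for both genes, and their differences were -0.03 (SE 0.07) and -0.08 (SE 0.07). Ifngr1, the ligand-binding chain of the interferon gamma receptor, had log2 values of 9.62 and 9.61 in WT and 9.69 and 9.61 in Usp2-KO pools, a difference of 0.04 (SE 0.07). Ifngr2, its second chain, had 10.76 and 10.79 in WT and 10.72 and 10.60 in Usp2-KO pools. Both Usp2-KO pools were below both WT pools for Ifngr2, by -0.12 on average (SE 0.08, 95% confidence interval -0.29 to 0.05, limma adjusted p = 0.685).

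Among the 8 transcription factors, 4 were higher and 4 lower, with a median difference of -0.04. Irf9, the DNA-binding part of the complex that acts on the ISRE, read 8.84 and 9.01 in WT pools and 8.77 and 8.74 in Usp2-KO pools. Stat2, its partner, read 8.48 and 8.54 in WT and 8.44 and 8.30 in Usp2-KO pools. For both genes the Usp2-KO pools lay below the WT pools, by -0.17 (SE 0.08, limma adjusted p = 0.569) and -0.14 (SE 0.08, limma adjusted p = 0.642), and neither difference passed.

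Irf2 and Irf1 bind the same kind of element, the first mostly as a repressor and the second as an activator. Irf2 gave 9.27 and 9.35 in WT and 9.46 and 9.47 in Usp2-KO pools, and was the 1 factor for which both Usp2-KO pools were above both WT pools, by 0.15 (SE 0.07, limma adjusted p = 0.569). Irf1 gave 8.219 and 8.320 in WT and 8.272 and 8.003 in Usp2-KO pools, with overlapping groups and a difference of -0.13 (SE 0.10). The second row of Irf1 differed by -0.03. Of the other factors, Irf3, which is activated downstream of the nucleic acid sensors, differed by -0.08, Irf5, a factor of macrophages, by 0.07, Irf7, which amplifies type I interferon production, by 0.02, and Irf8, a factor of myeloid cells, by 0.01. Their limma adjusted p-values lay between 0.813 for Irf3 and 0.991 for Irf8.

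The 3 cytosolic RNA sensors had overlapping groups. Ddx58, which encodes RIG-I, read 9.029 and 9.150 in WT and 8.995 and 9.054 in Usp2-KO pools. Ifih1, which encodes MDA5, read 7.36 and 7.54 in WT and 7.51 and 7.52 in Usp2-KO pools. Dhx58, which encodes LGP2, a regulator of the other two, read 6.40 and 6.86 in WT and 6.66 and 6.78 in Usp2-KO pools. The gap between the WT pools of Dhx58, 0.47, was the widest among the members in WT. The differences between genotypes were -0.07 for Ddx58, 0.06 for Ifih1 and 0.09 for Dhx58, with standard errors of 0.08, 0.08 and 0.13.

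The induced antiviral genes include the classical readouts of an interferon response. All 4 measured genes of the IFIT family and viperin were lower on average, with a median of -0.05, and none passed. Ifit1, whose protein binds viral RNA that lacks a proper cap, read 6.751 and 6.996 in WT and 6.778 and 6.550 in Usp2-KO pools. Its difference of -0.21 (SE 0.11, 95% confidence interval -0.45 to 0.03, limma adjusted p = 0.599) was made up of -0.45 in the pool 2 littermates and 0.03 in the pool 1 littermates. Ifit3, a partner of IFIT1, read 8.67 and 8.78 in WT and 8.74 and 8.65 in Usp2-KO pools, with overlapping groups and a difference of -0.03.

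Ifit2, which also belongs to this family, gave 6.80 and 6.83 in WT and 6.76 and 6.78 in Usp2-KO pools. Rsad2, which encodes viperin, an enzyme that makes a chain-terminating nucleotide, gave 7.98 and 7.98 in WT and 7.94 and 7.90 in Usp2-KO pools. Both genes had Usp2-KO pools below WT pools, by -0.05 (SE 0.07) and -0.06 (SE 0.07), so the order of the pools was clear but the differences were smaller than their errors. The IFIT genes have close copies in the mouse, and probes may be shared between them.

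The OAS genes encode enzymes that make short oligoadenylates, which switch on RNase L. Oas3 read 6.86 and 6.88 in WT and 6.74 and 6.70 in Usp2-KO pools, with no overlap and a difference of -0.16 (SE 0.07, 95% confidence interval -0.31 to 0.00, limma adjusted p = 0.559). Oas1a read 7.67 and 7.25 in WT and 7.54 and 7.57 in Usp2-KO pools. The Usp2-KO pools of Oas1a lay between the WT pools, so its difference of 0.09 (SE 0.12) has no settled direction. Oas2 read 7.44 and 7.45 in WT and 7.43 and 7.47 in Usp2-KO pools, a difference of 0.00 (SE 0.07). Oasl2, a family member, read 8.67 and 8.82 in WT and 8.72 and 8.65 in Usp2-KO pools, a difference of -0.06 (SE 0.08) with overlapping groups. Oas1a is one of several close copies in the mouse, and its row may pick up others.

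The interferon-induced GTPases held the highest difference among the members. Mx2, a gene of the dynamin-like GTPase family, read 5.31 and 5.34 in WT and 5.45 and 5.59 in Usp2-KO pools. Both Usp2-KO pools were above both WT pools, by 0.19 (SE 0.08, 95% confidence interval 0.02 to 0.37), and with a limma adjusted p of 0.508 the difference did not pass. Mx1, its neighbour gene, which is defective in most laboratory strains, read 4.71 and 4.45 in WT and 4.29 and 4.69 in Usp2-KO pools. Each genotype thus held 1 high and 1 low pool of Mx1. The values are of transcripts and do not say whether Mx1 or Mx2 makes a working protein in these mice. Mx1 and Mx2 were the 2 members with a mean log2 value under 6, and the other 29 passed a filter at that value. Gbp3, a guanylate-binding protein induced mostly by interferon gamma, read 7.12 and 7.34 in WT and 7.40 and 7.16 in Usp2-KO pools, with overlapping groups and a difference of 0.05 (SE 0.10).

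Of the 5 other induced genes, 4 were higher on average in Usp2-KO kidney, with a median of 0.12, and none passed. Cxcl10, a chemokine that draws T cells, read 8.54 and 8.73 in WT and 8.75 and 8.86 in Usp2-KO pools, with no overlap and a difference of 0.17 (SE 0.09, 95% confidence interval -0.03 to 0.37, limma adjusted p = 0.603). Xaf1, which promotes cell death, read 7.23 and 7.37 in WT and 7.37 and 7.46 in Usp2-KO pools, where WT pool 2 and Usp2-KO pool 1 differed only in the third decimal. Its difference was 0.12 (SE 0.08). Rtp4, which restrains the sensing of viral RNA, gave 7.41 and 7.65 in WT and 7.70 and 7.61 in Usp2-KO pools, and Ifi35 gave 7.77 and 7.91 in WT and 7.96 and 7.87 in Usp2-KO pools. The groups of both genes overlapped, with differences of 0.12 (SE 0.09) and 0.07 (SE 0.08). Bst2, which encodes tetherin, a protein that holds budding virus at the cell surface, differed by -0.01 (SE 0.07).

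Members with and without an ISRE core in the promoter had medians close to each other. The 12 measured members with it had a median difference of -0.02, with 5 of 12 higher in Usp2-KO kidney, and the 14 with a promoter in the table but without it had one of -0.04, with 6 of 14 higher. Over all tested genes the median was -0.01 for the 607 with an ISRE core and -0.005 for the 15004 without.

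The members also varied between pools of 1 genotype. In 25 of the 31 members (80.6%) WT pool 2 was above WT pool 1, as in 53.4% of all genes, and in 19 (61.3%) Usp2-KO pool 2 was below Usp2-KO pool 1, as in 51.9% of all genes. For 21 members (67.7%, against 53.8% of all genes) the WT pools lay farther apart than the genotype means. The pool 1 littermates then gave a median difference of 0.03 over the members and the pool 2 littermates one of -0.05, against 0.01 and -0.01 over all genes.

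In 13 members (41.9%) the difference was above 0 in the pool 1 littermates and below 0 in the pool 2 littermates, against 27.7% of all genes, and in 5 (16.1%, against 20.1%) it was the reverse. Examples of the former were Gbp3, at 0.28 and -0.18, Rtp4, at 0.29 and -0.04, Irf1, at 0.05 and -0.32, and Ifit1, at 0.03 and -0.45. Mx1, at -0.42 and 0.24, and Oas1a, at -0.14 and 0.32, ran the other way. Mx2, Cxcl10, Irf2 and Xaf1 were the 4 members higher in both littermate comparisons, and 9 were lower in both. These shares describe 4 pools, and no test was made of them.

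**Figure D3:**
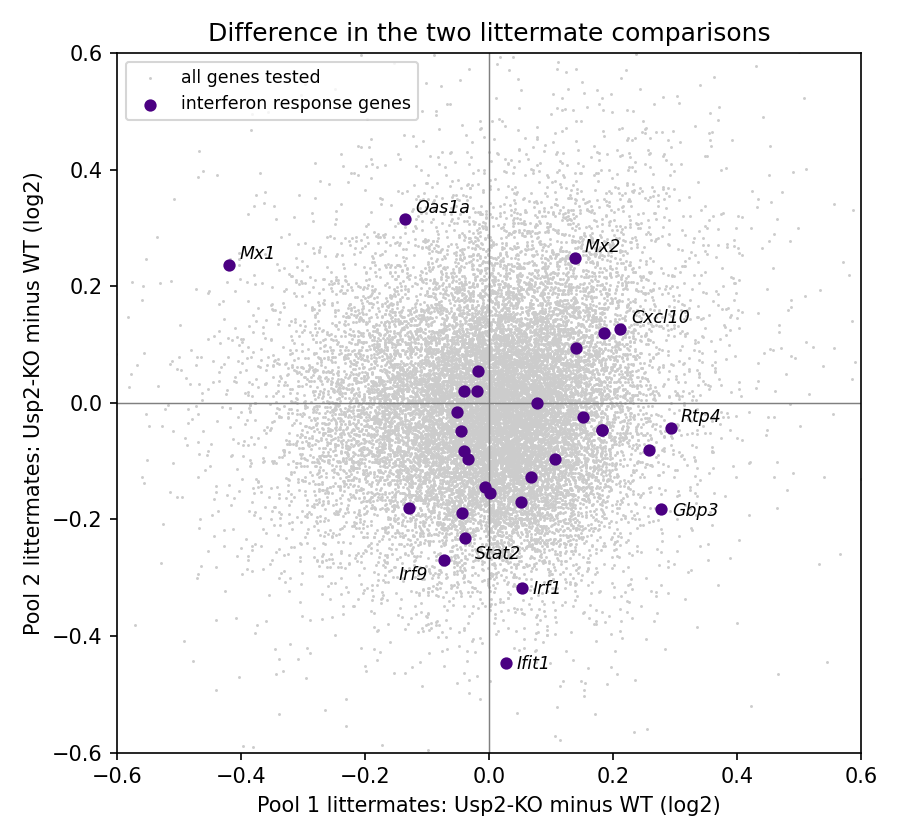
Usp2-KO minus WT on the log2 scale in the pool 1 littermates (horizontal axis) and in the pool 2 littermates (vertical axis), for the 31 members (purple) and all genes tested (grey, without the 70 genes beyond 0.6 on either axis). 13 members lie at the lower right, higher in the pool 1 and lower in the pool 2 littermates.

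The other genes of the interferon pathway were taken in 5 further lists. Of 70 measured further interferon-induced genes 27 were higher and 43 lower, with a median of -0.03, and 0 passed the adjusted threshold. At an unadjusted p under 0.05 in limma there were 7 of them (10%), 4 higher and 3 lower, a share near the 9.11% of all genes. The 3 of smallest p were Trim34a, a member of the TRIM family of antiviral proteins, at 7.40 and 7.49 in WT and 7.12 and 7.22 in Usp2-KO pools, Samd9l, a translation inhibitor, at 8.06 and 8.08 in WT and 8.25 and 8.42 in Usp2-KO pools, and Ube2l6, the conjugating enzyme for ISG15, at 8.49 and 8.77 in WT and 8.36 and 8.31 in Usp2-KO pools. Their differences were -0.27 (SE 0.08, limma adjusted p = 0.348), 0.27 (SE 0.08, limma adjusted p = 0.389) and -0.30 (SE 0.10, limma adjusted p = 0.402), and the pools of the genotypes did not overlap.

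The interferon ligands are the signals that start the response. Of 15 measured ligand genes 6 were higher and 9 lower, with a median of -0.07. At an unadjusted p under 0.05 in limma there were 0 of them, against 9.11% of all genes. A mean log2 value of at least 6 was found for 7 of the 15. Ifnl2, a type III interferon, read 8.37 and 8.46 in WT and 8.18 and 8.30 in Usp2-KO pools, with no overlap and a difference of -0.17 (SE 0.08). Ifne, an epithelial type I interferon, read 5.78 and 5.92 in WT and 5.49 and 5.85 in Usp2-KO pools. Its groups overlapped, and its difference of -0.18 (SE 0.12) became -0.0015 when Usp2-KO pool 1 was left out and -0.3625 when the other Usp2-KO pool was. Ifnz read 7.94 and 7.74 in WT and 7.70 and 7.73 in Usp2-KO pools, where WT pool 2 and Usp2-KO pool 2 differed only in the third decimal. Its difference of -0.12 (SE 0.09) became -0.02 without WT pool 1 and -0.228 without WT pool 2. Ifnb1, the interferon made first in many cells, read 5.14 and 5.14 in WT and 4.99 and 5.09 in Usp2-KO pools, with both Usp2-KO pools lower and a difference of -0.10 (SE 0.07). Ifng, interferon gamma, read 6.13 and 6.19 in WT and 6.00 and 6.15 in Usp2-KO pools, with overlapping groups and a difference of -0.08 (SE 0.08). The files hold no detection calls, so these values cannot be told from background. The ligand genes of the alpha family are close copies, whose rows may share probes.

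Among the genes next to the receptors Jak2 had the smallest p in limma, and among the negative regulators Socs1 did. Their differences ran in opposite directions, and a link between them was not tested. Jak2, a kinase of the interferon gamma receptor, read 8.29 and 8.34 in WT and 8.57 and 8.75 in Usp2-KO pools. Socs1, the feedback inhibitor that blocks these kinases, read 8.44 and 8.49 in WT and 8.21 and 7.98 in Usp2-KO pools. The pools of the genotypes did not overlap for either gene, with Jak2 at 0.35 (SE 0.08, 95% confidence interval 0.16 to 0.54, limma adjusted p = 0.296) and Socs1 at -0.37 (SE 0.09, 95% confidence interval -0.57 to -0.17, limma adjusted p = 0.301). Neither passed without the block. With the littermate pools as a block both passed, at a limma adjusted p of 0.0423 for Jak2 and 0.0304 for Socs1. The differences were the same in both fits. Their standard errors with the block, 0.0935 and 0.0944, were larger than those without it, 0.0828 and 0.0883. In the fit with the block 0.768% of all genes passed. The block leaves 1 residual degree of freedom, and with a prior of 90.6 its errors are drawn almost wholly from the spread shared over genes.

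The other receptor-proximal genes and negative regulators differed less between the genotypes than Jak2 and Socs1. Tyk2, a kinase of the type I receptor, differed by -0.14 (SE 0.08) and Il10rb, the shared chain of the type III receptor, by -0.14 (SE 0.08). Of 6 measured receptor-proximal genes 3 were higher and 3 lower, with a median of 0.01. The 18 negative regulators were 9 higher and 9 lower, with a median of 0.02. Cyld, a deubiquitinase that restrains RIG-I signalling, read 8.26 and 8.20 in WT and 8.49 and 8.55 in Usp2-KO pools, a difference of 0.29 (SE 0.07, limma adjusted p = 0.318) with no overlap, and Ptpn2, a phosphatase that acts on JAK and STAT proteins, differed by 0.18 (SE 0.08). Usp18, the protease that removes ISG15, differed by -0.07, and Socs3 by -0.04.

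In nucleic acid sensing, 6 of 15 measured genes were higher and 9 lower, with a median of -0.02. Tbk1, which encodes the kinase that activates IRF3, read 8.34 and 8.14 in WT and 8.59 and 8.49 in Usp2-KO pools, so that both Usp2-KO pools were above both WT pools. The difference was 0.30 (SE 0.09, 95% confidence interval 0.10 to 0.50, limma adjusted p = 0.373) and did not pass, with or without the littermate block (limma adjusted p = 0.108 with it). Ticam1, the adaptor of TLR3, differed by -0.15 (SE 0.07) and Unc93b1, which carries nucleic acid receptors to endosomes, by -0.11 (SE 0.07). Of the 124 measured genes of these 5 lists the fit with the block called 3 (2.42%, against 0.768% of all genes), namely Jak2, Socs1 and Ifit3b, a close copy of Ifit3. Ifit3b was named after its values were seen, and its difference of -0.42 (SE 0.17) was 0.03 in the pool 1 and -0.87 in the pool 2 littermates. Its groups overlapped, and its mean log2 value of 4.56 lay under the filter value of 6.

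**Figure D4:**
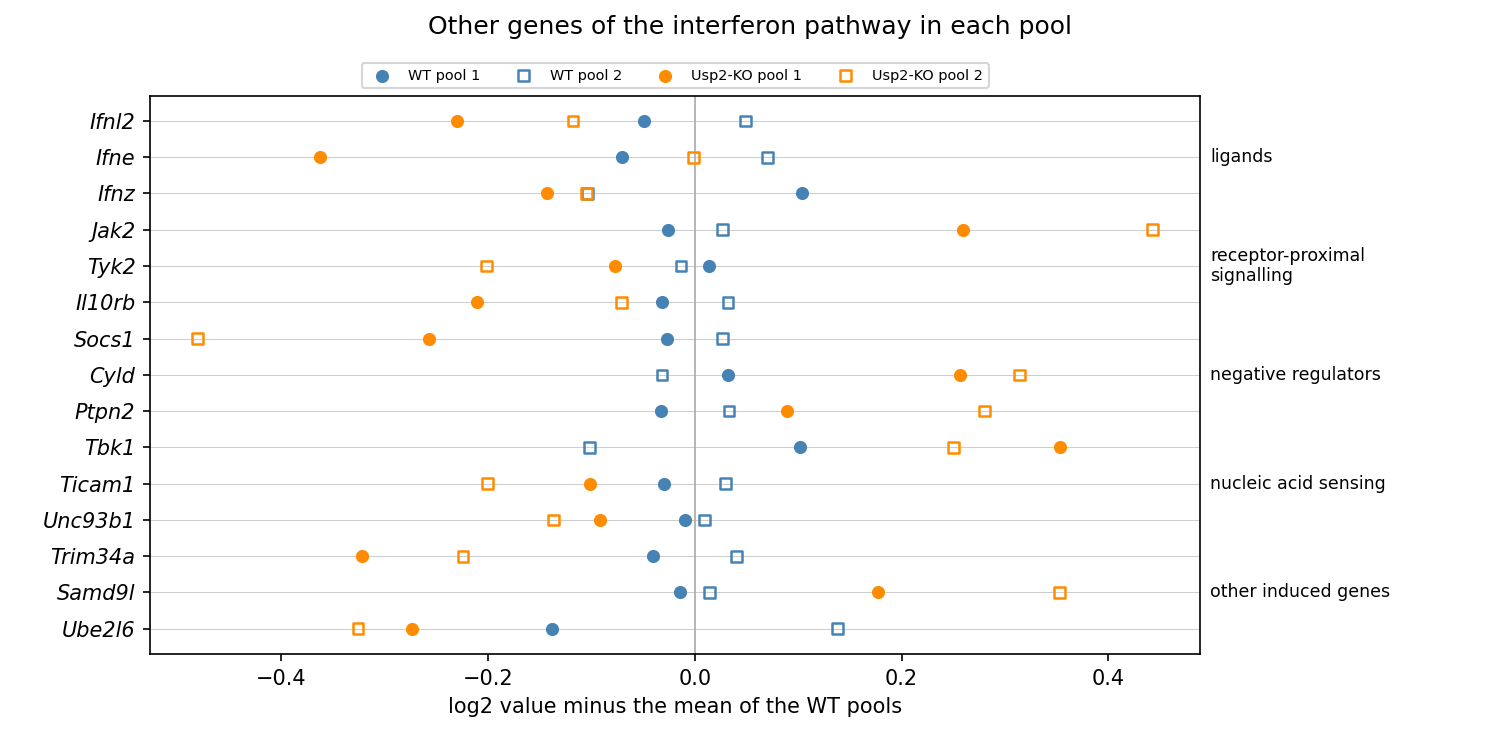
Log2 value of each pool minus the mean of the WT pools, for the 3 genes of smallest p in each of the 5 further lists of the interferon pathway. Both Usp2-KO pools lie to the right of both WT pools for Jak2, Cyld, Ptpn2, Tbk1 and Samd9l. They lie to the left for Socs1, Trim34a, Ube2l6, Ifnl2, Ifnz, Tyk2, Il10rb, Ticam1 and Unc93b1, and the groups of Ifne overlap. Choosing genes by p favours groups that do not overlap, as was so for 38.9% of all genes.

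**Figure D5:**
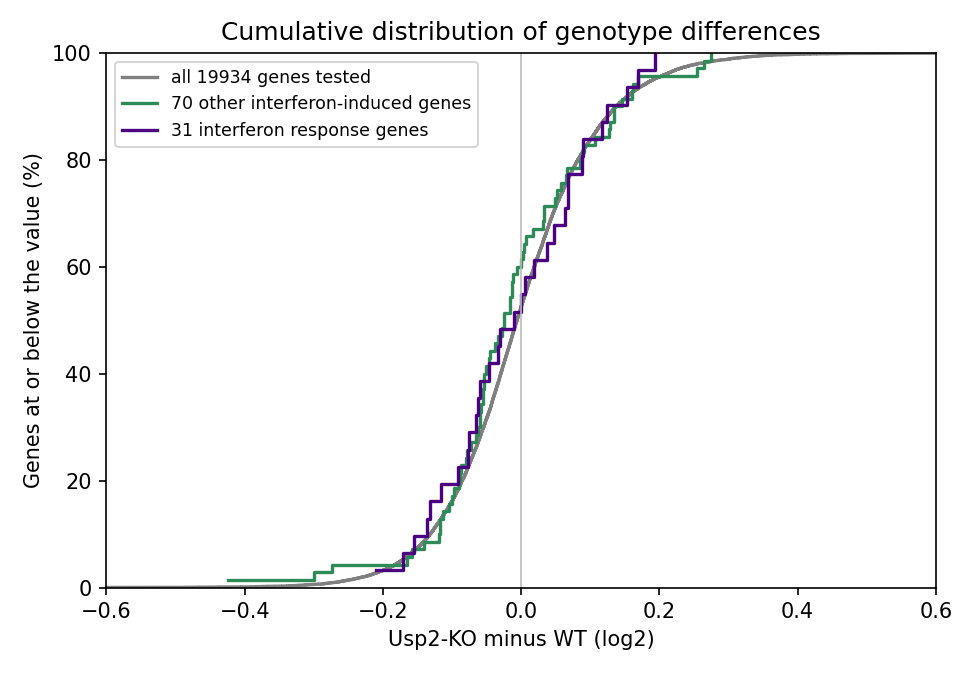
Share of genes at or below each Usp2-KO minus WT difference on the log2 scale, for all 19934 genes tested (grey), 70 further interferon-induced genes (green) and the 31 members (purple). The 3 curves cross 50% between -0.03 and -0.006.

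Markers of immune, vascular and kidney cells were read beside these values. Macrophage and monocyte markers had a mean log2 value over 10 genes of 7.69 to 7.76 in every pool and a median difference of -0.0005, with Csf1r, the growth factor receptor of macrophages, at -0.001. Dendritic cell markers, a list that also holds the member Bst2, had 6 of 8 genes lower and a median of -0.02. For T and NK cells 7 of 11 markers were lower (median -0.07), and Cd3e, a chain of the T cell receptor complex, differed by -0.23 (SE 0.07, limma adjusted p = 0.385). Cd3d and Cd3g, further chains of that complex, differed by -0.20 and 0.01. Lower values were found for 6 of 8 neutrophil markers (median -0.12), 5 of 7 B cell and plasma cell markers (median -0.01) and 7 of 8 endothelial markers (median -0.04). Over all 19934 genes tested 10465 were lower. Of the kidney markers 7 of 11 were higher (median 0.04), and Calb1, the calcium-binding protein of the distal tubule, differed by 0.44. Slc12a3 and Pvalb, also distal tubule genes of this list, differed by -0.06 and -0.08. At an unadjusted p under 0.05 in limma there were 3 kidney markers (27.3%, against 9.11% of all genes), all higher. They were Calb1, Slc26a4 (0.30) and Nphs1 (0.19). None of these markers passed the adjusted threshold in limma without the littermate block, and with it Calb1 did (limma adjusted p = 0.00391). Over the 4 pools the mean log2 value of a list ranged from 6.28 to 6.38 for T and NK cells, 7.30 to 7.36 for dendritic cells, 5.68 to 5.85 for neutrophils, 6.98 to 7.01 for B cells and 9.94 to 10.08 for endothelium. Their part in the values of the members was not tested.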

How the data were processed

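Kidney RNA of 2 WT and 2 Usp2-KO pools was read on 4 arrays. Values were deposited on a log2 scale, and the authors used RMA (submitters' processing notes). This method corrects background, equalises the arrays and summarises each probe set, which compresses changes of weakly expressed genes. Its software, and any filter before deposit, are not given in the sources used here. Of 28270 rows, 21780 carry 1 gene symbol in the platform annotation, 1617 several, and 4873 are not listed. The row of highest mean was kept per gene (19934 genes, 996 with several rows), with no filter on signal. The genotype difference (Usp2-KO less WT) came from lmFit and eBayes of limma 3.58.1 under R 4.3.3, with a prior of 6.87 degrees of freedom. Benjamini-Hochberg adjustment ran over all genes, with a threshold of 0.05. Pools of 1 number hold littermates according to the design text of the series, so pool number was a block in an alternative fit. Across genes, the departures of such pools from the mean of their genotype correlated at -0.121. The fit was tested on simulated data. All 4 receptor genes and up to 4 members of smallest p in each other role are given in full, and 3 genes of smallest p in each further list. Ifnb1, Ifng, Usp18, Socs3, Ifit3b and the cell markers named were added for what they are, except that Slc26a4 and Nphs1 were named for their p. The members and lists were chosen with earlier results of these data known. Promoter sequences are from RefSeq (GRCm38.p6), and the array files name no build. Figures were drawn with matplotlib 3.10.9.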

Additional observations from a re-analysis of the deposited data

How the results depend on the processing

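The count of members called stayed 0 under every alternative run, which were the littermate block, an intensity trend, a robust prior, signal filters, averaging the rows of each gene, repeated quantile normalization, median centring, a threshold of 0.10 and each pool left out. Over all genes 153 passed with the littermate pools as a replicate block, 18 with the trend, 7 with genes under 6 left out, 7 with genes under the overall median left out, 2 at a threshold of 0.10, and 1 to 2 with a pool left out. The block changed the call of Jak2, Socs1 and Ifit3b among the named genes of the pathway, of the kidney marker Calb1 and of no member. A crossed pairing, chosen after the pairing check, called 1 gene and 0 members. The median difference of the members stayed between -0.039 and 0.0025 with a pool left out. Above the median of all genes, the ligands had a median of -0.124 and the receptor-proximal genes one of 0.062. These medians rest on only 3 ligands and 5 receptor-proximal genes that passed this filter. With a pool left out, the medians ranged from -0.123 to -0.013 for ligands, from -0.0165 to 0.026 for receptor-proximal genes, from -0.0085 to 0.0415 for negative regulators, from -0.1235 to 0.017 for nucleic acid sensing and from -0.04975 to 0.00575 for the other induced genes, so that the ligands alone of these 5 lists kept their sign. A fit with a pool left out holds 1 array in 1 group, so counts of members at an unadjusted p are not given for it.

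The sign of 15 members turned when a pool was left out, and none of these had a called difference. Their ranges were -0.039 to 0.019 for Bst2, -0.144 to 0.321 for Dhx58, -0.072 to 0.167 for Gbp3, -0.002 to 0.137 for Ifi35, -0.0265 to 0.1545 for Ifih1, -0.0855 to 0.0255 for Ifit3, -0.005 to 0.081 for Ifngr1, -0.2665 to 0.0025 for Irf1, -0.0015 to 0.1365 for Irf5, -0.0245 to 0.0625 for Irf7, -0.052 to 0.062 for Irf8, -0.29 to 0.106 for Mx1, -0.121 to 0.30 for Oas1a, -0.021 to 0.022 for Oas2 and -0.135 to 0.016 for Oasl2. Repeated quantile normalization turned Irf7 to -0.006187 and Irf8 to -0.020, and centring turned Oas2 to -0.00125. The cause was not tested.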
